A study of Sus scrofa with 6 samples.

Results

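The report concerns 33 genes whose symbol is CD followed by a number, of 4122 genes listed for lymph node, spleen and thymus of pigs with a biallelic RAG2 knockout and of wild-type littermates. They are what is left of the CD-numbered symbols after 20 were set aside, among them the CD3 chains, CD2, CD4, CD5, the CD8 chains, CD28, CD79A and CD79B. The choice went by symbols and by no cutoff on measured values, but it was made with earlier results of these data known. Of the 33 genes, 30 reached 1 FPKM (fragments scaled to transcript length and library size) in at least 1 library, and 25 did so in all 6 libraries. CD38, the marker named for the set, was present in every library, between 5.87 and 124 FPKM. CD81, CD163 and CD207 were listed at exactly 0 in all 6 libraries, as were 768 of the 4122 genes, BSG among them. CD81 and BSG are made by most cell types, so a value of 0 is given here as listed and not as absence.

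There was 1 library for each of 6 groups: wild-type lymph node, wild-type spleen, wild-type thymus, and the same organs of the RAG2 knockout. All tissues came from pigs aged 3 months. RAG2 and RAG1 form the recombinase that joins the gene segments of antigen receptors, so that animals without it make neither mature T cells nor mature B cells. The series title speaks of a deletion of a single amino acid. The labels give neither the number of pigs behind a library, nor whether the organs of a genotype came from the same pig, nor the site of the lymph node.

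CD numbers are given to leukocyte surface molecules that groups of antibodies recognise, so the genes share a naming system and not an ancestor. Among them are coreceptors of the B-cell receptor, costimulatory receptors and their ligands, lectins and scavenger receptors of macrophages, complement regulators and tetraspanins. Flow cytometry uses these proteins to tell cell types apart. The values here are transcript levels in whole organs and hold no measure of protein at the cell surface.

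Fragments assigned to listed genes numbered between 1922562 and 2541724 per library, and the CD-numbered genes took 0.353 to 1.16% of them. RAG2 transcript amounted to 606 FPKM in wild-type and 1072 FPKM in knockout thymus, 0 and 5 fragments in lymph node and 4 and 0 fragments in spleen. A transcript that is still made does not test the genotype label. The thymic epithelium markers in the tables (CCL25, DLL4 and KRT8) summed to 2317 FPKM in wild-type thymus against 42.6 FPKM in wild-type lymph node and 53.3 FPKM in wild-type spleen.

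A gene counted as measured in a tissue if it reached 1 FPKM in at least 1 of the 2 libraries, and was called at a log2 ratio of knockout over wild type, with 1 FPKM added to each, of 1 or more in size. Paired values give the wild type first and the knockout after it. With 1 library per group no difference has a replicate check, and no p-value is given. Each fold below divides the scaled fragments of 1 library by those of the other, and the range in brackets is a 95% Clopper-Pearson interval for counting error alone. Levels in different tissues come from tables scaled separately for each tissue and are set side by side without a test.

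In lymph node 9 of 28 measured CD-numbered genes were lower in the knockout and 3 were higher, where 10.3% of all 2910 measured genes were lower and 15.3% higher. In spleen 7 of 30 were lower and 5 higher, where 286 of all 2849 measured genes (10%) were lower and 8.88% higher. In thymus 8 of 29 were lower and 5 higher, where 10.9% and 15.2% of 2908 genes were. With counts scaled to their total the thymus split was 6 lower and 8 higher, and the median of all genes there moved to 0.12. No share of all genes was computed at that scaling, so this split has none to be set beside. The median log2 ratio of the CD-numbered genes was -0.37, -0.06 and -0.25 in the 3 organs, and that of all measured genes lay between -0.02 and 0. A pseudocount of 5 FPKM left 4 lower genes in spleen and 4 in thymus, and no share of all genes was computed for that setting. At the main setting the lower share stood above that of all genes in each organ. The higher share stood above it in spleen, below it in lymph node and near it in thymus, where 4 of the 5 higher genes had a counting interval away from equal levels.

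**Figure D1:**
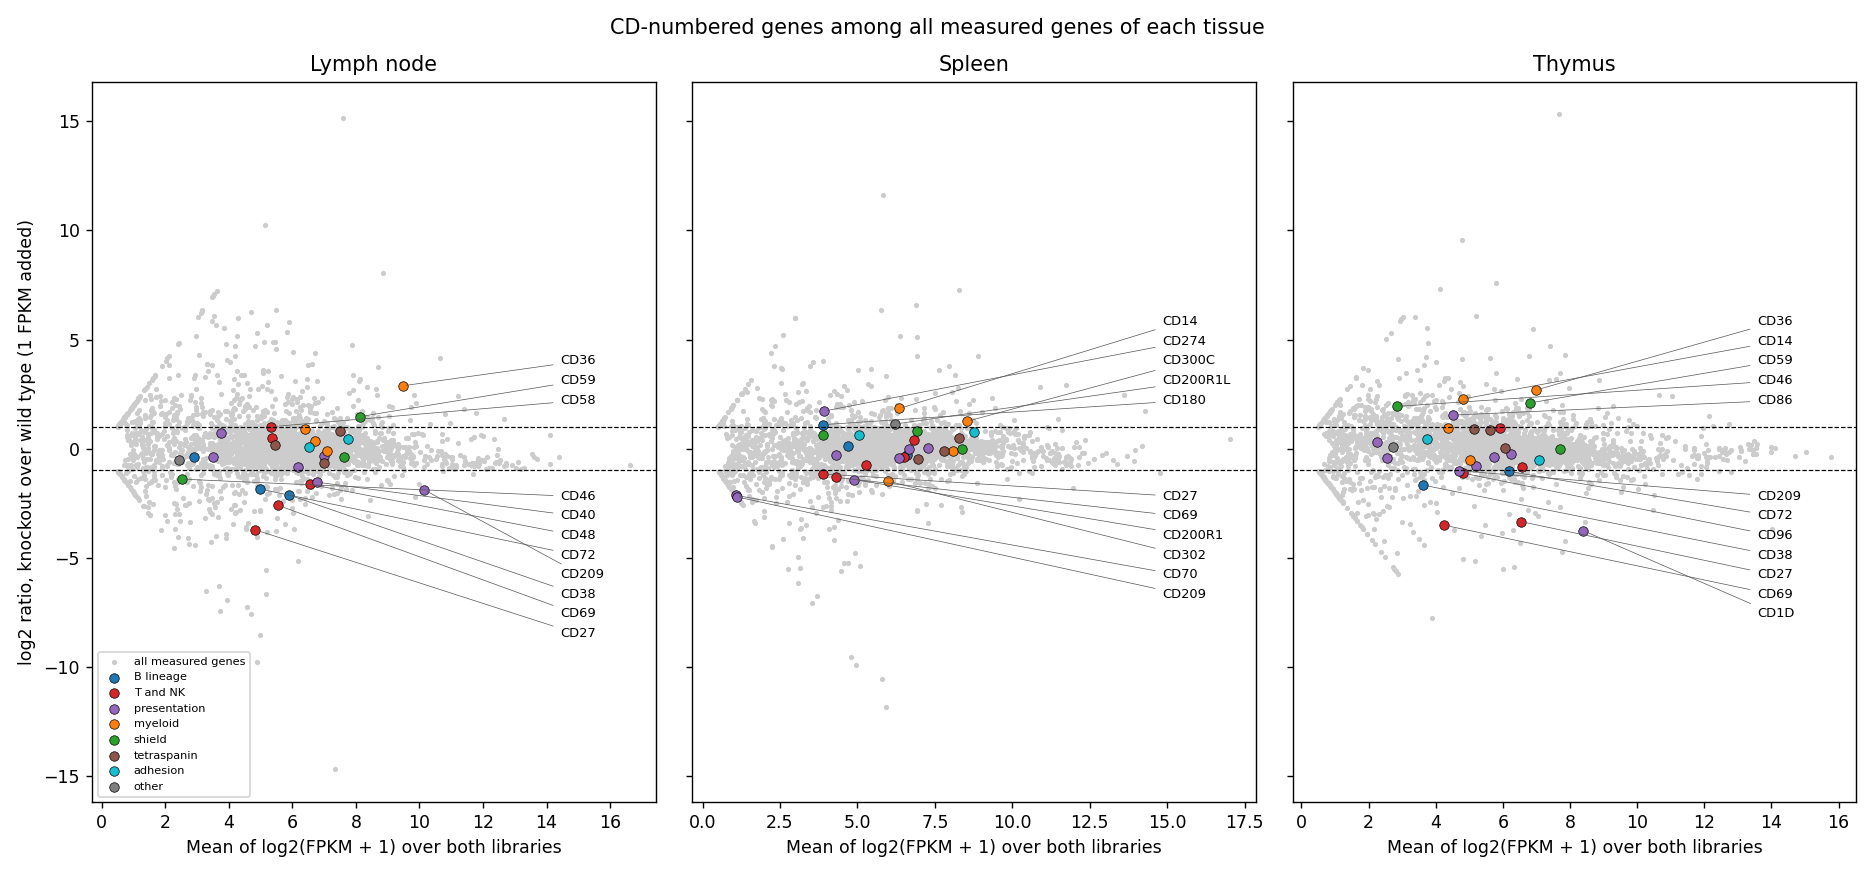
log2 ratio of knockout over wild type (1 FPKM added to each) against the mean log2(FPKM + 1) of the 2 libraries, for all measured genes (grey) and the CD-numbered genes coloured by group, 1 panel per tissue. Dashed lines mark the size needed for a call, and lines lead from called CD-numbered genes to their names. Among the coloured genes CD1D in thymus lies lowest at -3.76 and CD36 in lymph node highest at 2.88.

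In whole-organ RNA, fewer cells of a type and less RNA per cell cannot be told apart. The summed level of the B-cell marker list (MS4A1, CD79A, CD79B and FCER2 in the tables) went from 1439 to 4.59 FPKM in lymph node and from 470.2 to 8.29 FPKM in spleen. In thymus it was 149 and 184 FPKM, with CD79A at 119.7 and 172 FPKM, while MS4A1 and FCER2 were lower. The CD-numbered genes that follow were grouped under the B lineage by a list of symbols, and other cells carry some of them, as given below. They are to be read beside these sums, and the part of B cells in their values was not tested.

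CD38, an enzyme that breaks down NAD and is carried by plasma cells, activated lymphocytes and other leukocytes (chromosome 8, 11083682 to 11130783 in Sscrofa11.1), was lower in 2 of the 3 knockout organs. In lymph node it went from 124 to 27.6 FPKM, 4.49-fold lower (3.86 to 5.23). In thymus it went from 20.8 to 5.87 FPKM, 3.55-fold lower (2.55 to 5.03). In spleen it stood at 107 and 85.9 FPKM, a log2 ratio of -0.31 and short of a call. Spleen was thus the organ in which CD38 differed least. The plasma cell list, which holds CD38 itself, summed to 668 and 749.5 FPKM in lymph node, 538 and 291 FPKM in spleen and 265 and 244 FPKM in thymus. In lymph node and in thymus 3 of its 5 measured genes were lower, with IRF4 among them on at most 2 fragments, and in spleen 1 of 4. None was called higher. POU2AF1 was lower in each organ, from 92.1 to 0 FPKM in lymph node and from 44.7 to 0 FPKM in spleen. In thymus POU2AF1 went from 6.20 to 1.07 FPKM on 17 and 3 fragments. XBP1 and SDC1, named after their values were seen, stood higher in the knockout lymph node without a call, at 390.3 and 681 FPKM and at 10.8 and 19.8 FPKM.

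CD72, an inhibitory coreceptor known from B cells (chromosome 1, 236345894 to 236355755), followed the same order as CD38. It went from 59.4 to 15.7 FPKM in lymph node, 3.76-fold lower (2.82 to 5.10), and from 104 to 49.6 FPKM in thymus, 2.09-fold lower (1.75 to 2.49). The thymus call is lost with a pseudocount of 5 FPKM (log2 ratio -0.99) and with counts scaled to their total (-0.93). In spleen the levels were 24.1 and 26.0 FPKM. Its highest level of the 6 libraries was that of the wild-type thymus, where the B-cell list summed to 149 FPKM. CD180, a relative of the Toll-like receptors found on B cells, macrophages and dendritic cells, went the other way in spleen, from 9.22 to 20.9 FPKM (2.28-fold higher, 1.71 to 3.06). That call is lost with a pseudocount of 5 FPKM (log2 ratio 0.86). It was 7.49 and 5.53 FPKM in lymph node and under 1 FPKM in both thymus libraries.

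CD27 and CD69 were lower in all 3 knockout organs. CD27, a costimulatory receptor of T cells and memory B cells (chromosome 5, 64197594 to 64202236), went from 102 to 6.82 FPKM in lymph node, 14.8-fold lower (8.26 to 29.2). It went from 293 to 28.0 FPKM in thymus, 10.5-fold lower (7.82 to 14.3), and from 21.1 to 8.89 FPKM in spleen, 2.34-fold lower (1.29 to 4.37) on 36 and 18 fragments. The spleen call is lost with a pseudocount of 5 FPKM (log2 ratio -0.91). Wild-type thymus held its highest level. CD69, which lymphocytes put on their surface early in activation and thymocytes during selection (chromosome 5, 62078134 to 62084961), went from 113 to 17.9 FPKM in lymph node, 6.23-fold lower (4.13 to 9.75). In thymus it went from 62.5 to 4.59 FPKM, 13.6-fold lower (6.35 to 34.8), and in spleen from 30.2 to 11.5 FPKM, 2.57-fold lower (1.48 to 4.60). For both genes the spleen had the lowest wild-type level and the smallest difference. The T-cell marker list summed to 1811 and 225 FPKM in lymph node and to 745 and 406 FPKM in spleen. In thymus it summed to 8720.4 and 4160.1 FPKM. All 8 of its genes were lower in the knockout lymph node, and the knockout thymus had 5 of 8 lower. The spleen sum hides a split. There 3 of 8 were lower, CD3E at 155 and 2.16 FPKM, CD5 at 35.8 and 6.71 FPKM and BCL11B at 6.56 and 0.457 FPKM. The rest of the list was not called there, with CD3D at 83.7 and 92.9 FPKM and CD247 at 188 and 131 FPKM.

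CD48, an adhesion protein of most leukocytes, was called in lymph node alone. It went from 165 to 52.3 FPKM in lymph node, 3.14-fold lower (2.76 to 3.57). In thymus it stood at 128 and 70.5 FPKM, a log2 ratio of -0.85, and in spleen at 98.4 and 128 FPKM, a log2 ratio of 0.38. CD96, a receptor of T cells and natural killer cells, was lower in thymus, at 40.6 and 18.1 FPKM. Its fragments there, 109 and 32, gave a 3.49-fold difference (2.33 to 5.35), more than its FPKM, since FPKM per fragment of CD96 varied 1.55-fold over the libraries. The call by FPKM is lost with a pseudocount of 5 FPKM (log2 ratio -0.98). In lymph node CD96 was at 33.8 and 48.5 FPKM and in spleen at 49.1 and 29.0 FPKM, neither called. The natural killer list had 3 of its 6 measured genes higher in lymph node. In spleen it had 4 of 6 higher and 1 lower, and in thymus 3 of 5 higher.

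CD58, the ligand of the T-cell adhesion receptor CD2, was the gene of this group that was called higher. It was higher in the knockout lymph node, at 27.5 and 56.1 FPKM (2.06-fold, 1.47 to 2.92), and its log2 ratio lay just past the size threshold, at 0.91 with a pseudocount of 5 FPKM. In thymus it was at 42.4 and 82.8 FPKM, with a log2 ratio of 0.95, just short of a call. In spleen it stood at 101 and 77.7 FPKM. Between organs its FPKM cannot be compared, since FPKM per fragment varied 3.27-fold over the libraries.

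**Figure D2:**
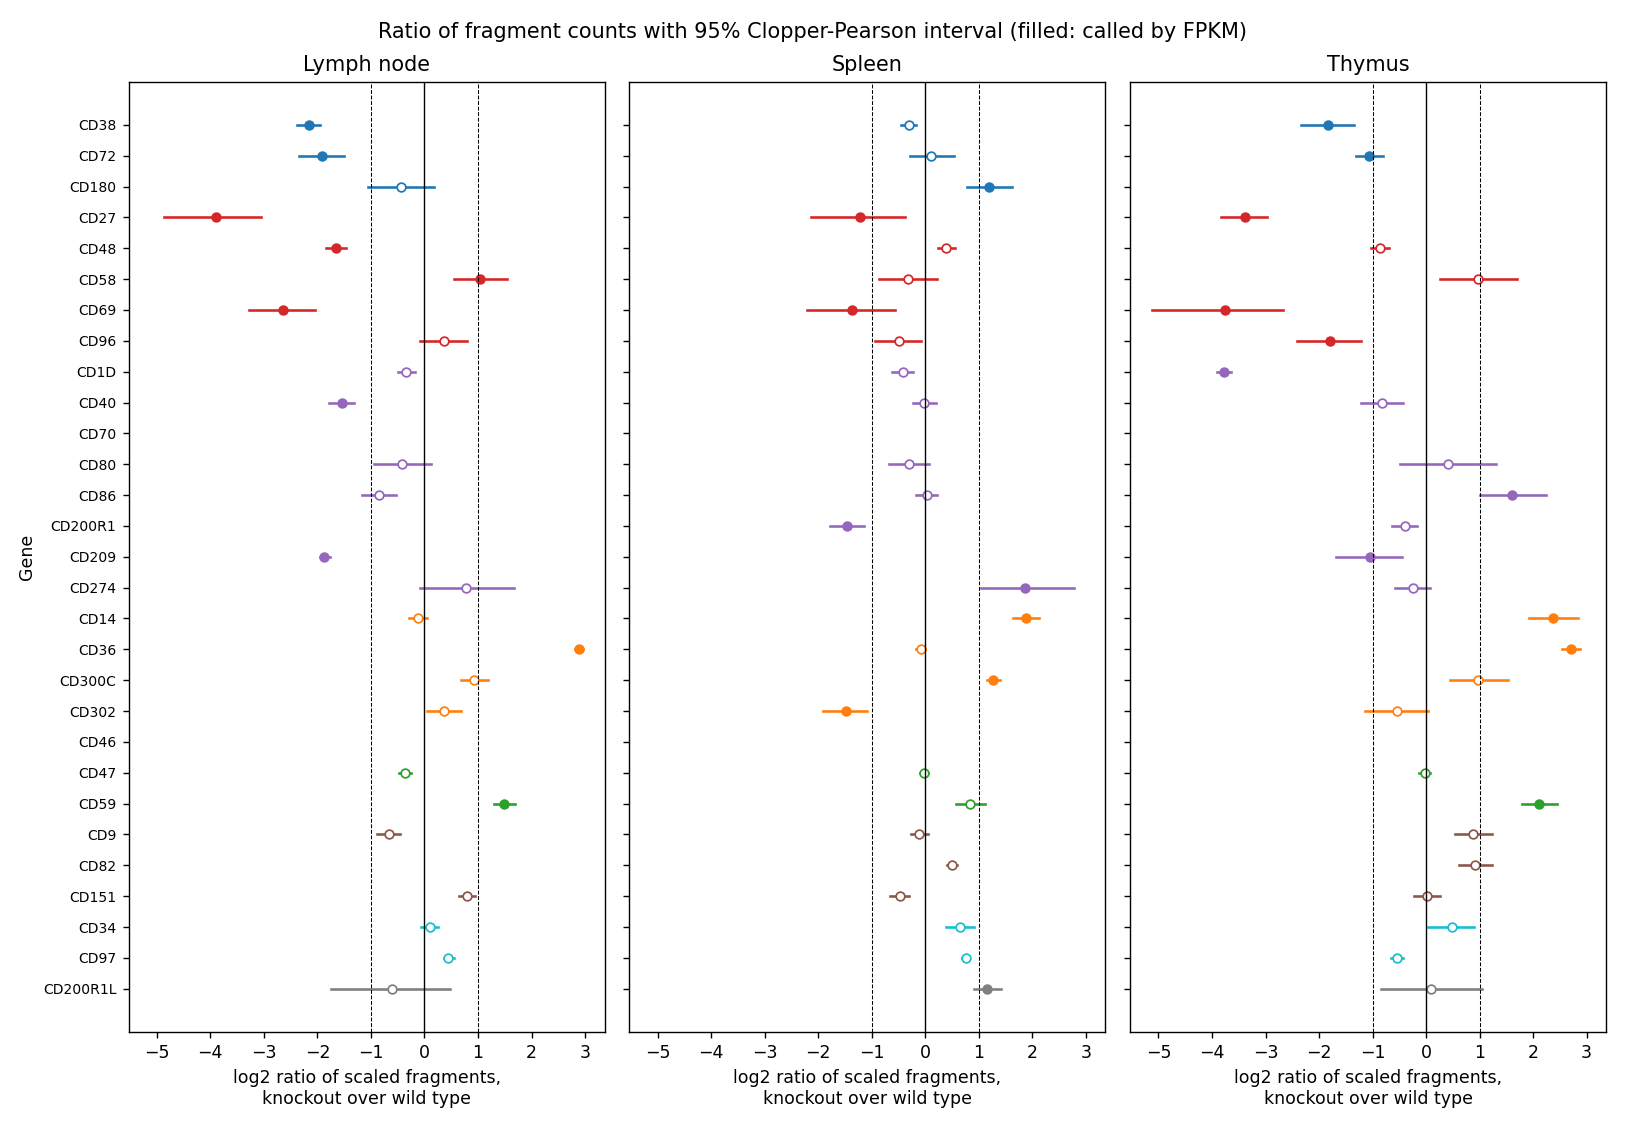
log2 ratio of scaled fragment counts, knockout over wild type, with 95% Clopper-Pearson intervals (bars) for each CD-numbered gene with at least 10 fragments in 1 library of the tissue, coloured by group. Filled points were called by FPKM and open points were not; dashed lines mark log2 ratios of -1 and 1, and bars cover counting error only. CD1D in thymus and CD36 in lymph node and thymus have narrow intervals far from 0.

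CD1D, which presents lipids to natural killer T cells and is carried by cortical thymocytes (chromosome 4, 92096670 to 92101177), had its difference in thymus. There it went from 1243 to 90.6 FPKM, on 6822 and 509 fragments, 13.7-fold lower (12.5 to 15.1). That ratio ranked 26th from the lowest of 2908 genes. In lymph node CD1D stood at 143 and 112 FPKM and in spleen at 92.1 and 68.3 FPKM, neither called. The wild-type thymus alone stood apart: the other 5 libraries lay between 68.3 and 143 FPKM.

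CD40, the receptor through which helper T cells activate B cells and dendritic cells (chromosome 17, 48286116 to 48298188), was lower in the knockout lymph node, from 184 to 62.9 FPKM (2.92-fold, 2.49 to 3.43). It stood at 47.1 and 26.7 FPKM in thymus, a log2 ratio of -0.80, and at 101 and 99.0 FPKM in spleen. CD80 and CD86, the ligands that dendritic cells, macrophages and B cells offer to CD28 and CTLA4, did not move together. CD86 went from 12.4 to 38.0 FPKM in thymus, 3.05-fold higher (2.02 to 4.74), from 95.8 to 52.7 FPKM in lymph node, a log2 ratio of -0.85, and stood at 153 FPKM in both spleen libraries. CD80 was called in no organ, with levels of 12 and 8.98 FPKM in lymph node, 21.2 and 17.1 FPKM in spleen, and 3.26 and 4.30 FPKM in thymus. In thymus the macrophage list had 6 of 9 genes higher and 1 lower (summed 1114 and 2865 FPKM). The dendritic cell list there had 4 of 5 lower and XCR1 higher (164 and 26.4 FPKM). Their part in the CD86 difference was not tested.

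CD274, the inhibitory ligand PD-L1, was higher in the knockout spleen, at 7.32 and 26.4 FPKM on 15 and 64 fragments (3.65-fold, 2.06 to 6.90). In lymph node it was at 9.51 and 16.1 FPKM, a log2 ratio of 0.71 with an interval of the fold from 0.949 to 3.18. Thymus held its highest levels in both genotypes, at 82.1 and 69.0 FPKM. The ligand CD70, a partner of CD27, was near the floor everywhere, with at most 7 fragments in any library. Its spleen value went from 4 fragments to 0, 1.56-fold lower with the knockout set at a floor of 3 fragments per library. That call counts among the 7 in spleen, but its interval reaches past equal levels.

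CD209, a lectin that binds sugars on pathogens and is known from dendritic cells and macrophages (chromosome 2, 71394414 to 71397711), was the most abundant of the CD-numbered genes in wild-type lymph node. It went there from 2158 to 586 FPKM, on 4060 and 1163 fragments, 3.65-fold lower (3.42 to 3.90). Thymus had 36.0 and 17.3 FPKM, 2.08-fold lower (1.37 to 3.21), with a log2 ratio of -1.01 just past the size threshold. Spleen had 3.63 FPKM on 7 fragments in wild type and 0 in the knockout, 2.72-fold lower with the knockout set at the same floor. Its counting interval there starts at 1.68-fold. With a pseudocount of 5 FPKM the spleen and thymus calls are lost (log2 ratios of -0.79 and -0.88), and with counts scaled to their total that in thymus (-0.89). The lymph node call, on by far the highest levels, did not depend on these settings. In lymph node the macrophage list had 4 of 9 genes higher and none lower (summed 9713 and 14863 FPKM), and the dendritic cell list had 1 of 5 lower (278 and 165 FPKM).

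CD200R1 and CD200R1L, receptors of an inhibitory signal on myeloid cells and lymphocytes and their like-named neighbour, lie 30.2 kb apart on chromosome 13. In spleen they went opposite ways. CD200R1 went from 47.7 to 17.2 FPKM, 2.76-fold lower (2.22 to 3.45), and CD200R1L from 49.6 to 109.7 FPKM, 2.23-fold higher (1.87 to 2.66). Their fragments together numbered 460 in wild type and 585 in the knockout, a ratio of 1.09 after scaling (0.962 to 1.23). In lymph node CD200R1 was listed at 0.000154 and 4.93e-05 FPKM, below 1 fragment, beside 19 and 13 fragments for CD200R1L. In thymus the fragments lay with CD200R1, 360 and 280, against 20 and 22 for CD200R1L. How the counting divided fragments between such similar genes is not given in the sources used here, so the split between them is uncertain. Moving fragments from 1 gene to the other leaves the fragment sum as it is, but fragments left out or placed elsewhere would not. A sum of FPKM would depend on the split, since FPKM per fragment was 0.170 for CD200R1 and 0.277 for CD200R1L in wild-type spleen.

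CD14, the coreceptor that hands lipopolysaccharide to TLR4 (chromosome 2, 142348036 to 142349686), was higher in 2 knockout organs. It went from 42.2 to 154 FPKM in spleen, 3.67-fold higher (3.11 to 4.35), and from 11.7 to 60.6 FPKM in thymus, 5.17-fold higher (3.81 to 7.15). In lymph node it stood at 141 and 129.5 FPKM, a fold of 0.923 (0.820 to 1.04). The wild-type lymph node thus already had the level that the knockout spleen reached. The neutrophil list was higher in all 6 measured genes in spleen (summed 43.8 and 1759 FPKM), in 5 of 6 in thymus (129.8 and 2189.7 FPKM) and in 4 of 5, with 1 lower, in lymph node (44.0 and 595 FPKM). Its sum was higher in lymph node as well, where CD14 was not called, and its part in the CD14 values was not tested. CD300C, an activating receptor of monocytes and related cells (chromosome 12, 6632078 to 6635924), was higher in spleen, at 241 and 575 FPKM (2.41-fold, 2.22 to 2.62). It came close to a call in the other organs, at 60.8 and 116 FPKM in lymph node (log2 ratio 0.92) and 14.0 and 27.5 FPKM in thymus (0.93). Its ratio was the steadiest of the called genes, with 0.34 on the log2 scale between the organs.

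CD36, a scavenger receptor and fatty acid transporter of fat cells, macrophages, platelets and small vessels (chromosome 9, 99685748 to 99782296), was higher in knockout lymph node and thymus and not in spleen. It went from 260.2 to 1919.8 FPKM in lymph node, on 1659 and 12833 fragments, 7.40-fold higher (7.03 to 7.79), the largest fold among CD-numbered genes that were higher. In thymus it went from 49.0 to 321 FPKM, 6.54-fold higher (5.83 to 7.37), and in spleen it stood at 279 and 262 FPKM. The adipocyte list moved in the same organs. It was higher in 6 of 6 genes in lymph node (summed 55.5 and 8398 FPKM) and in all 5 measured in thymus (196 and 1523 FPKM), and in spleen it had 1 of 4 higher and 1 lower (28.7 and 18.1 FPKM). The endothelial list was also higher, in 2 of 4 genes in lymph node (1246 and 2256 FPKM) and 4 of 4 in thymus (92.0 and 226 FPKM), and in none in spleen (341 and 425 FPKM). The macrophage list, given above for lymph node and thymus, had 2 of 9 higher and 2 lower in spleen (30699 and 23689 FPKM). The platelet list was higher in 5 of 5 genes in spleen (25.2 and 96.2 FPKM), where CD36 was not called, in 2 of 3 in lymph node (8.65 and 29.3 FPKM) and in 1 of 3 in thymus (7.48 and 16.9 FPKM). The part of these cell types in the CD36 values was not tested.

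CD302, a lectin receptor of myeloid cells, differed from the other myeloid genes. It was lower in the knockout spleen, at 105 and 36.8 FPKM (2.81-fold, 2.12 to 3.76), and stood at 92.7 and 118 FPKM in lymph node and at 37.9 and 25.9 FPKM in thymus. In spleen, the macrophage list split as well, with MSR1 at 321 and 45.2 FPKM and SIGLEC-1 at 60.1 and 3.75 FPKM lower, and VSIG4 at 2.50 and 19.9 FPKM and FCGR1A at 0 and 2.64 FPKM higher. The haemoglobin scavenger receptor CD163 was among the genes listed at 0.

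CD59, which blocks the last step of complement attack on the body's own cells (chromosome 2, 27186587 to 27207303), was higher in the knockout in 2 organs and leaned the same way in the other. It went from 168 to 466 FPKM in lymph node, 2.81-fold higher (2.46 to 3.22), and from 53.0 to 229.7 FPKM in thymus, 4.33-fold higher (3.46 to 5.46). In spleen it stood at 90.3 and 159 FPKM, 1.79-fold (1.48 to 2.18), the nearest to a call among the genes not called there. CD47, the signal that keeps macrophages from engulfing a cell (chromosome 13, 151427933 to 151488064), was called in no organ, at 221 and 171 FPKM in lymph node, 334 and 329 FPKM in spleen and 209 and 205 FPKM in thymus. The intervals of its fold, 0.721 to 0.838 in lymph node, 0.935 to 1.04 in spleen and 0.914 to 1.05 in thymus, include equal levels in spleen and thymus and lie wholly below them in lymph node. CD46, another complement regulator, had between 1 and 8 fragments per library, too few to read a direction from.

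The tetraspanins, membrane organisers with 4 passes through the membrane, were called in no organ at the main setting, with CD81 listed at 0. Several of their counting intervals still lay away from equal levels. In thymus CD82 was 1.89-fold higher (1.53 to 2.34) and CD9 1.84-fold higher (1.45 to 2.34). CD151 was 1.74-fold higher in lymph node (1.56 to 1.93) and 1.39-fold lower in spleen (1.24 to 1.57). CD9 was 1.59-fold lower in lymph node (1.38 to 1.84). With counts scaled to their total CD82 was called higher in thymus (log2 ratio 1.02). CD9 stood at 161 and 101 FPKM in lymph node, 231 and 212 FPKM in spleen and 35.1 and 64.5 FPKM in thymus. CD151, known from basal cell layers, vessels and platelets, stood at 138 and 238 FPKM, 146 and 104 FPKM, and 65.8 and 66.4 FPKM in the same order. CD82 had 264 and 369.9 FPKM in spleen and 25.1 and 47.4 FPKM in thymus. In lymph node its 40.6 and 46.1 FPKM rested on 7 and 9 fragments, and FPKM per fragment of CD82 varied 29.9-fold over the libraries, so that its lymph node level cannot be set beside the others. The adhesion receptors CD34, of blood vessels and progenitors, and CD97, of leukocytes (ADGRE5 in the RefSeq annotation), were not called either. CD34 was at 87.4 and 92.9 FPKM in lymph node, 25.7 and 39.9 FPKM in spleen and 10.5 and 14.6 FPKM in thymus. CD97 was at 182 and 248 FPKM, 333 and 559.9 FPKM, and 161 and 110.4 FPKM, and was among the 5 most abundant CD-numbered genes in all 6 libraries.

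**Figure D3:**
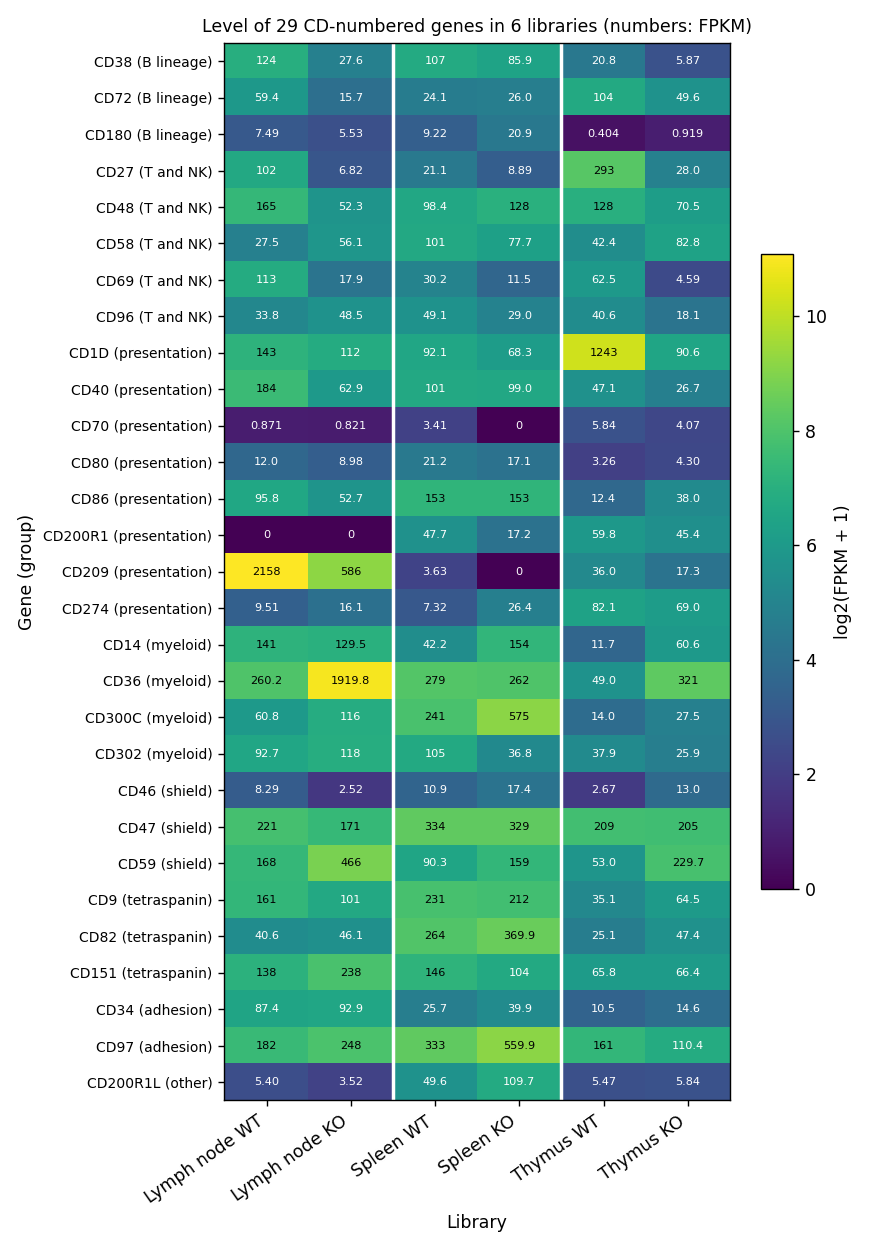
FPKM of 29 CD-numbered genes that reached 1 FPKM in at least 1 library (rows, by group) in each of the 6 libraries (columns; WT wild type, KO knockout), coloured by log2(FPKM + 1) with the FPKM printed in each cell. CD209 in wild-type lymph node, CD36 in knockout lymph node and CD1D in wild-type thymus hold the highest values, at 2158, 1919.8 and 1243 FPKM. Values of CD200R1 in lymph node, below 1 fragment, are printed as 0.

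Over the 3 organs, 23 of the 33 genes were called in at least 1, 14 of them lower and 10 higher, with CD46 counted under both on few fragments. The 33 include the 3 genes listed at 0 in all 6 libraries. Shares of all genes lower or higher in at least 1 organ were not computed, so the 14 and 10 have no value beside them. For calls of either kind, the share never called is given below for the 27 genes measured in all 3 organs and for all genes so measured. Of the 27 measured in all 3 organs, 4 were lower in each, among them CD27, CD69 and CD209, and none was higher in each. CD209 is counted there although its spleen value rests on 7 and 0 fragments, under the 10 fragments needed to read a direction. Calls lost with a pseudocount of 5 FPKM include those of CD27 in spleen and of CD209 in spleen and thymus. Over all genes measured in the 3 organs, 1.42% were lower in each and 1.91% higher in each. CD38 and CD72 were lower in lymph node and thymus, CD36 and CD59 higher in the same organs, and CD14 higher in spleen and thymus. CD9, CD34, CD47, CD80, CD82, CD97 and CD151 were measured in all 3 organs and never called, 7 of 27 genes, where 61.3% of all genes measured in the 3 organs were never called. The wild-type spleen held the highest wild-type level of 15 of the 30 genes, the lymph node of 9 and the thymus of 6, with CD58, CD82 and CD96 open to the uneven FPKM per fragment given above. The organ with the highest level differed between the genotypes for 11 genes, for example CD38, CD40 and CD48, which peaked in wild-type lymph node and in knockout spleen.

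The receptors and ligands that bind CD-numbered proteins were taken from a list of 33 genes, of which 20 were in the tables. In lymph node 7 of 17 measured partners were lower and 2 higher, beside 10.3% and 15.3% of all measured genes. In spleen 5 of 16 were lower and 1 higher, beside 10% and 8.88%, and in thymus 5 of 17 were lower and 7 higher, beside 10.9% and 15.2%. The T-cell side of several pairs had the larger differences. CD28, the receptor of CD80 and CD86, went from 16.3 to 0.740 FPKM in lymph node, 4.93 to 0.322 FPKM in spleen and 36.8 to 0.362 FPKM in thymus. CD40LG, the ligand of CD40, went from 36.1 to 3.21 FPKM in lymph node, from 8.82 to 0 FPKM in spleen and from 20 to 0 FPKM in thymus, while CD40 was called in lymph node alone. CTLA4 had 12.4 FPKM (18 fragments) in wild-type lymph node and 0 in the knockout.

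Other partners were higher in some organs. Thrombospondin THBS1, which CD36 and CD47 bind, stood at 274 and 367 FPKM in lymph node, 172 and 577 FPKM in spleen and 13.2 and 48.7 FPKM in thymus. It was thus higher in spleen, where CD36 was not. Haptoglobin HP, whose complex with haemoglobin CD163 takes up, went from 3.54 to 36.5 FPKM in lymph node and from 51.7 to 1020.2 FPKM in thymus. In spleen it went the other way without a call, at 20.1 and 10.7 FPKM, 1.86-fold lower (1.26 to 2.77). CD2 as a partner and TLR4 were chosen after their values were seen, because CD58 and CD14 act with them. CD2 went from 348 to 91.4 FPKM in lymph node and from 1191 to 439.6 FPKM in thymus, where CD58 was not lower. TLR4 was at 112 and 134 FPKM in lymph node and 318 and 295 FPKM in spleen, and at 16.5 and 49.1 FPKM in thymus, so that CD14 and TLR4 were both higher in thymus but not in spleen.

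**Figure D4:**
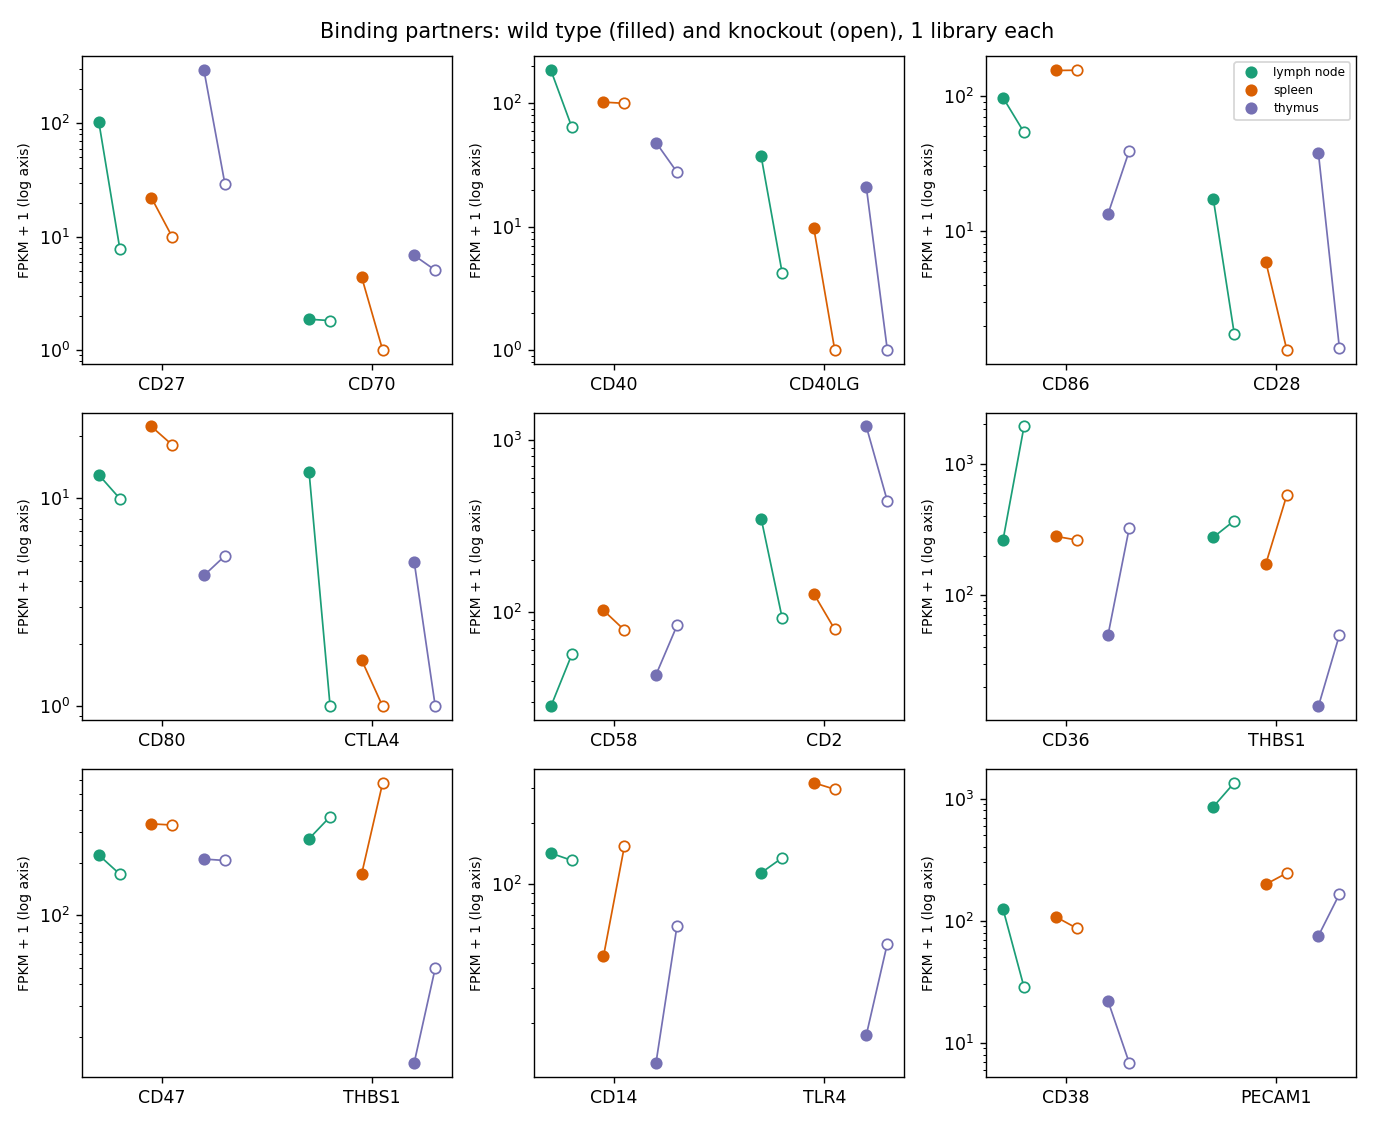
FPKM + 1 on a log axis of CD-numbered genes (left in each panel) and a binding partner (right), in wild-type (filled) and knockout (open) libraries of lymph node (green), spleen (orange) and thymus (purple), 1 library per point. CD40LG, CD28 and CTLA4 lie at 3.21 FPKM or less in each knockout library, while CD40 and CD86 lie at 26.7 FPKM or more. CD80 is also low in knockout thymus, at 4.30 FPKM, and CTLA4 is low in wild-type spleen too, at 0.671 FPKM.

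Of 66 CD antigens on a list of those filed under another gene symbol, 41 were in the tables. In lymph node 11 of 38 measured were lower and 5 higher, in spleen 10 and 5 of 37, and in thymus 6 and 9 of 38. Over all measured genes the shares lower and higher were 10.3% and 15.3%, 10% and 8.88%, and 10.9% and 15.2%, so that the higher count in lymph node was near that of all genes. Medians of the log2 ratio were -0.03, 0.08 and 0.16. CD20 (MS4A1) stood at 356 and 0.887 FPKM in lymph node and 135 and 0.257 FPKM in spleen, and CD23 (FCER2) at 114 and 0.458 FPKM in lymph node. CD13 (ANPEP), an aminopeptidase of myeloid cells, was higher in each organ, at 9.84 and 128 FPKM in lymph node, 9.27 and 37.2 FPKM in spleen and 4.58 and 28.9 FPKM in thymus. CD141 (THBD), an anticoagulant receptor of vessels and some dendritic cells, was chosen after its values were seen. It went from 29.1 to 99.9 FPKM in lymph node and from 107 to 437 FPKM in thymus, the 2 organs in which CD36 and CD59 were higher.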

How the data were processed

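The 6 libraries came from total RNA of lymph node, spleen and thymus, made with a stranded kit per the labels' protocols. Per the submitters' processing notes, FastQC 0.11.9, Trimmomatic 0.39, STAR 2.7.9a, Cufflinks 2.2.1 and the build Sscrofa11.1 were used; for settings, annotation and strand use the labels give nothing. The authors deposited FPKM and estimated counts, 1 table of each per tissue. The deposited estimated counts carry 1 factor per library: after division by the most frequent value (0.9254 to 1.081), 97.0 to 99.2% were whole within 0.02, and they were rounded to fragments. FPKM was used for levels and calls, fragments for folds and intervals. The 4122 listed genes are not a whole annotation, and sums over them do not give sequencing depth.

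The CD-numbered genes, the lists and the rule for named genes were chosen with earlier results of these data known. Named genes are those called on at least 10 fragments, the 5 most abundant per library, CD38, those nearest the threshold and, for other lists, up to 4 with the largest called ratio per tissue. Coordinates and names come from RefSeq (32 symbols matched directly and 1 through another name). 1 CD-numbered gene is counted in the totals, but its values are not reported here. Calculations were tested on simulated counts. Alternatives were pseudocounts of 0.1 and 5, other minimums, centring, and counts scaled by total, by edgeR 4.0.16 TMM or by DESeq2 1.42.0 size factors; no count model was fitted. Python 3.11.15, numpy 2.4.6, pandas 2.3.3, scipy 1.17.1, matplotlib 3.10.9 and R 4.3.3 were used.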

Additional observations from a re-analysis of the deposited data

Results flagged for a closer look

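For 4 genes the knockout stood on opposite sides of the wild type in 2 organs, by a call in both or by a call in 1 and a counting interval away from equal levels in the other. The difference between organs was not tested. CD86 had log2 ratios of -0.85 in lymph node and 1.54 in thymus, 2.39 apart. CD48 had -1.64 in lymph node and 0.38 in spleen, 2.02 apart. CD302 had 0.35 in lymph node and -1.49 in spleen, a difference of -1.84. CD46 had -1.40 in lymph node and 1.94 in thymus, 3.34 apart, on 3 and 1 fragments in the first organ and 1 and 5 in the other, with counting intervals that include equal levels in both.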

How the results depend on the processing

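No paired analysis was possible because the groups share fewer than 2 replicate numbers, and a fit of genotype over the 3 organs as pairs was not run. Directions of the 73 log2 ratios of named CD-numbered genes reversed for no called gene under any of 6 other scalings or pseudocounts, and 10 calls were lost and 3 gained in 438 comparisons. A pseudocount of 5 FPKM brought the genes lower in the knockout from 7 to 4 in spleen and from 8 to 4 in thymus. Among the lost calls were CD58 in lymph node, CD180, CD27 and CD209 in spleen, and CD209, CD72 and CD96 in thymus. Scaling counts to their total, which moved the median of all genes in thymus to 0.12, gave 8 higher genes there in place of 5, with CD300C, CD58 and CD82 gained, and medians of -0.10 in spleen and -0.13 in thymus. With no expression minimum the medians were -0.12, -0.023 and 0. In spleen, the median was -0.027 with a minimum of 5 FPKM and -0.032 with a minimum of 10 fragments, an alternative added once the data had been seen. The other alternatives left each count within 1.5 times its main value. Shares of all genes called were not computed for any alternative. Genes under 10 fragments in both libraries (7, 6 and 6 of 33 in lymph node, spleen and thymus) carry no usable direction.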
